A study of Mus musculus with 24 samples.

Results

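The 10 immediate early genes Egr1, Fos, Fosb, Jun, Junb, Jund, Atf3, Ier2, Ier3 and Myc were followed in mouse liver across 6 feeding groups. Every probe whose accession, as the array files give it, belongs to one of these symbols was taken, which gave 14 probes for 10 genes, of 41174 probes and 17855 analysed genes in all. Each gene is described by 1 probe, the brightest of those measured in every group, and the additional probes of Junb, Ier2 and Myc are given beside it. The name of the set was checked against what the genes are known to do: 8 of the 10 encode DNA-binding transcription factors, while Ier2 and Ier3 are immediate early response genes whose products are not classed as such factors here.

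Total RNA of livers from male C57BL/6N mice was labelled with Cy5 and hybridised on 24 Agilent 2-colour arrays together with a Cy3-labelled common reference RNA. The groups, with the abbreviations of the study, were ethanol diet for 10 days plus a binge of 5 g ethanol per kg (E10d1B, n = 3), ethanol diet for 8 weeks (E8w, n = 5), ethanol diet for 8 weeks plus 1 such binge (E8w1B, n = 5), ethanol diet for 8 weeks plus such binges 2 times per week (E8wMB, n = 4), and pair-fed mice after 8 weeks (P8w, n = 4) or 10 days (P10d, n = 3). No group carried a transgene, and the age of the mice and the time between the last binge and sampling are not given in the sources used here. The reference is named as a commercial RNA of assorted mouse tissues, while the same channel also carries the tissue liver, so its makeup is uncertain. A log2 ratio is the Cy5 level over the Cy3 level on the same array, and a gene was called where its adjusted p, from 1 limma fit of all 6 groups with Benjamini-Hochberg adjustment over all genes tested, was under 0.05. The labels do not say that the samples of a group are separate animals, so each p-value reflects no more than the scatter among the arrays at hand.

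Between 70.4% and 86.7% of the probes of an array were well above background in Cy5, and 6 of 6 hepatocyte markers (among them Alb, Apoa1 and Ttr) were so on all arrays. The arrays lay on 11 slides in 3 scans. P8w, E8w and E8w1B shared scan 1, P10d and E10d1B shared scan 2, and E8wMB was alone in scan 3, so for any difference between E8wMB and another group, and between P8w and P10d, scan and feeding cannot be told apart.

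Immediate early genes are transcribed within minutes of a stimulus without need of new protein, because the factors that drive them, such as serum response factor and CREB, are already in the nucleus and are switched on by MAP kinase signalling. FOS and JUN proteins pair through leucine zippers to form the AP-1 factor, ATF3 joins the same dimers, and EGR1 is a zinc finger factor induced by the same signals. In liver these genes are known for their brief induction after partial hepatectomy, ischaemia and toxic injury.

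Promoter windows are shown for Junb and Jund, the AP-1 subunits that rose after a binge on both 8-week comparisons, and for Fos, their partner, whose signal stayed near background. Each covers 250 bases before and 50 bases after the gene's start in RefSeq, build GRCm38.p6, read 5′ to 3′ along the gene. Capitals mark the TATA box motif, of which the Jund window holds none.
Junb (chr8:84978699-84978998, minus strand): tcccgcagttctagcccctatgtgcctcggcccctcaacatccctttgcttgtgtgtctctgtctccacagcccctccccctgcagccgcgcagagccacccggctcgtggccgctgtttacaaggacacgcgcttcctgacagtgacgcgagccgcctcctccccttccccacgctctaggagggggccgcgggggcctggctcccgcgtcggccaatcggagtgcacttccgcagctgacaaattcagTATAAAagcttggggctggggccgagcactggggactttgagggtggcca
Jund (chr8:70697489-70697788, plus strand): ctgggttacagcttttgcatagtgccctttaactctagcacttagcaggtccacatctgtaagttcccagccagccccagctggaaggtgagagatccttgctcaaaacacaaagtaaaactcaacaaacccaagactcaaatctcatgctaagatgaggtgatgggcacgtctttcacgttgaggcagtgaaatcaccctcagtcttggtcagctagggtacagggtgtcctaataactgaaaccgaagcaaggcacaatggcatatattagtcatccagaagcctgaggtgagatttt
Fos (chr12:85473640-85473939, plus strand): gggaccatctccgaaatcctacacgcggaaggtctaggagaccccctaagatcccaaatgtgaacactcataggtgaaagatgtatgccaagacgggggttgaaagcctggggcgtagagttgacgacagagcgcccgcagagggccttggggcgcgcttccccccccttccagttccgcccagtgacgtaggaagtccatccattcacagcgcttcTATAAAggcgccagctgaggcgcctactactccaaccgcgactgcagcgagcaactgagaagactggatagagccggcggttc
Windows were found for 7 of the 10 genes, the others being Egr1, Ier2 and Myc. The TATA box letters TATAAA, searched on both strands, were in 2 of the 7, in Fos at position -33 and in Junb at position 1, counted from the first base of the gene as 1. They occur in 13.6% of all 32851 promoter windows of the same length. The CRE letters TGACGTCA (1.79% of all windows), the AP-1 letters TGANTCA (7.81%), the E-box CACGTG (7.15%) and the CArG box of serum response factor (1.63%) were in 0 of the 7, which says only that these letters are not in these windows. No 2 motifs overlapped.

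A single binge after 8 weeks of ethanol went with higher levels of Egr1, of the AP-1 subunits Junb, Jund and Fos, and of Ier2 and Ier3, against 8 weeks of ethanol alone. Of these, only Egr1, Jund and Ier2 were called under every alternative processing. Fos and Ier3 were near background, and a brighter Junb probe differed by 0.23 and was not called. The 8-week ethanol diet without a binge moved none of the 10 genes past the threshold. After 10 days of ethanol plus a binge, Egr1 alone was called. The plot of log2 ratios by array shows the 10 genes in all 6 groups.

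**Figure D1:**
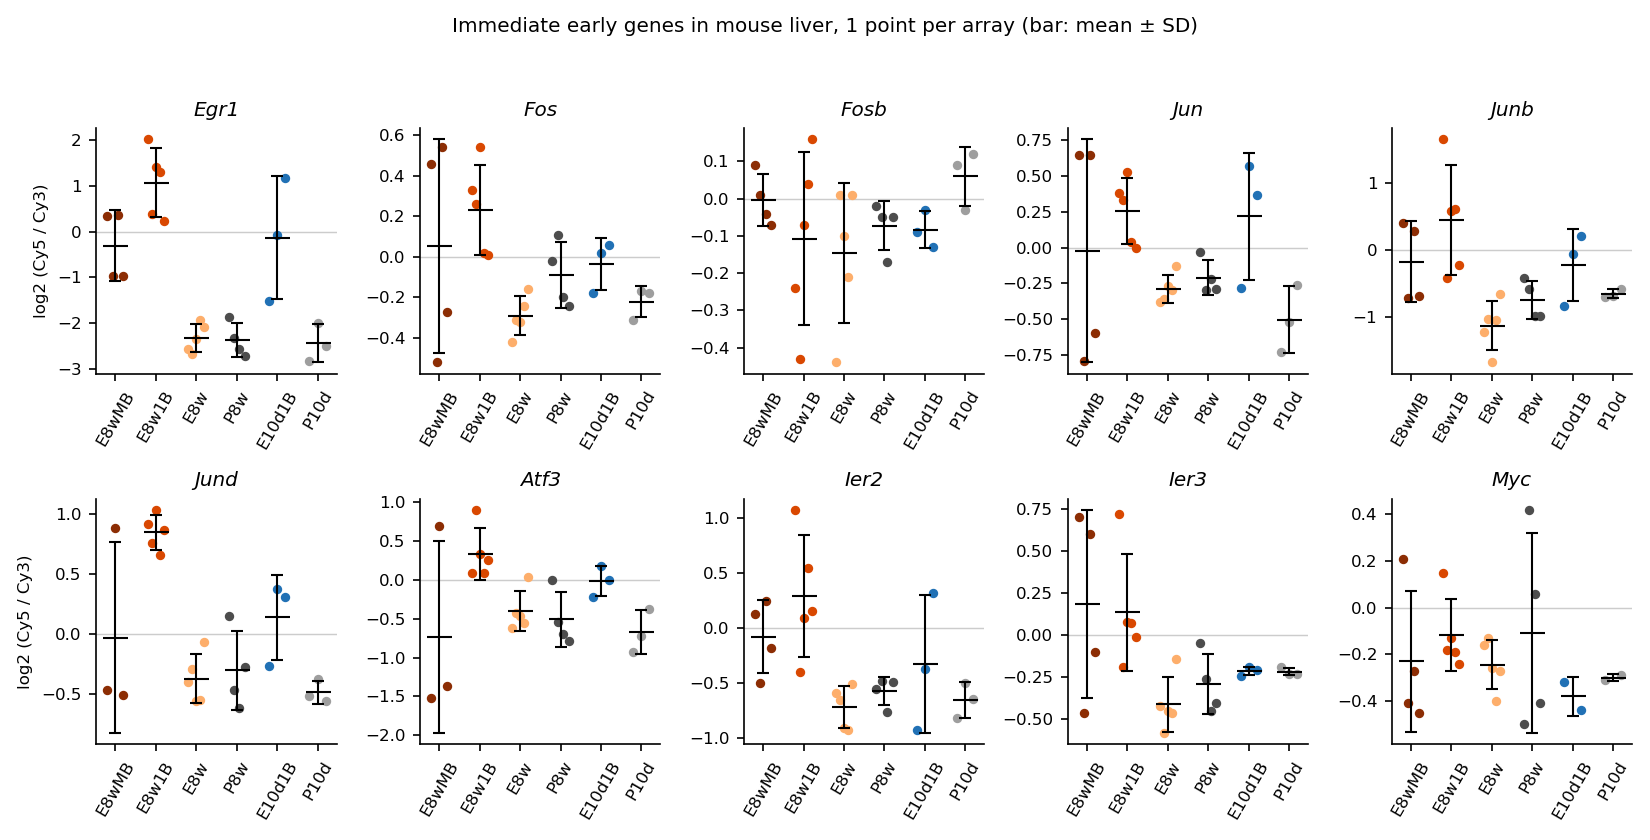
Log2 ratio of Cy5 (liver) over Cy3 (reference) for each of the 10 genes, 1 point per array, with the mean and SD of each group; each panel has its own vertical scale. The 5 E8w1B arrays of Egr1 lie between 0.23 and 2.02, above all E8w arrays (-2.67 to -1.93) and all P8w arrays (-2.71 to -1.87), and Jund shows the same separation on a smaller scale.

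Egr1, the zinc finger factor, had the widest range of group means among the 10 genes, 3.51 log2 units. Its log2 ratio was 2.02, 0.38, 1.42, 1.31 and 0.23 on the E8w1B arrays, against -2.57, -2.67, -2.35, -1.93 and -2.09 on the E8w arrays and -1.87, -2.33, -2.57 and -2.71 on the P8w arrays. All E8w1B arrays lay above all arrays of both other groups, which overlapped each other. The mean difference was 3.39 ± 0.39 (SE; 10.5-fold) for E8w1B over E8w (limma adjusted p = 3.17e-06) and 3.44 ± 0.42 (10.9-fold) for E8w1B over P8w (limma adjusted p = 5.72e-06). Within slides, E8w1B exceeded E8w on 5 of 5 slides, by 2.16 to 4.59, and P8w on 4 of 4 slides, by 2.71 to 3.99. In the Cy5 channel alone the differences were 3.12 and 3.42, and in the Cy3 channel they were -0.18 and -0.15, so the shift lay in the liver channel. The scanner's own log ratio, which subtracts background without an offset, gave 4.32 over E8w and 5.07 over P8w, so the fold of Egr1 depends on which ratio is used.

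After 10 days the Egr1 log2 ratio was -1.51, -0.08 and 1.18 on the E10d1B arrays, against -2.83, -1.99 and -2.49 on the P10d arrays. The groups did not overlap, but the SD of 1.35 in E10d1B was the largest of the 6 groups. The difference was 2.30 ± 0.51 (4.93-fold, limma adjusted p = 0.00571), and without replicate 3 of E10d1B it was 1.64 with adjusted p = 0.0528. On the 2 slides that hold both groups it was 1.90 and 3.68, and by the scanner's own log ratio it was 3.27. The difference of ethanol plus a binge over pair-feeding was larger at 8 weeks than at 10 days by 1.14 ± 0.65 (95% interval -0.21 to 2.49). This interaction was not called (limma adjusted p = 0.42). No 10-day group had ethanol without a binge, so diet and binge cannot be told apart at 10 days or in the interaction.

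In order of group means the Egr1 ratio was 1.07 ± 0.75 in E8w1B, -0.14 ± 1.35 in E10d1B, -0.31 ± 0.77 in E8wMB, -2.32 ± 0.31 in E8w, -2.37 ± 0.37 in P8w and -2.44 ± 0.43 in P10d (SD). The 3 groups without a binge did not differ beyond their spread: E8w minus P8w was 0.05 ± 0.42 (SE; limma adjusted p = 0.998) and P8w minus P10d was 0.07 ± 0.47 (limma adjusted p = 0.967). The arrays of E10d1B and E8wMB overlapped. In these bulk samples, shifts in cells of a type and in RNA per cell cannot be told apart, here and for every gene below.

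Jund, an AP-1 subunit that most tissues express at rest, rose with little spread. Its log2 ratio was 0.92, 0.76, 1.04, 0.66 and 0.87 on the E8w1B arrays, against -0.40, -0.29, -0.56, -0.55 and -0.07 on the E8w arrays and 0.15, -0.47, -0.62 and -0.28 on the P8w arrays. The lowest E8w1B array was above the highest array of the other groups. The difference was 1.23 ± 0.20 over E8w (2.34-fold, limma adjusted p = 1.69e-04) and 1.16 ± 0.21 over P8w (2.23-fold, limma adjusted p = 5.61e-04), with the same sign on 5 of 5 and 4 of 4 slides. At 10 days the ratio was -0.27, 0.38 and 0.31 in E10d1B, against -0.52, -0.38 and -0.56 in P10d, which did not overlap. That difference, 0.62 ± 0.26 (95% interval 0.09 to 1.16), was not called (limma adjusted p = 0.173), and with the slide as a block it was 0.81 with adjusted p = 0.0408. The block value rests on the 2 slides that hold both groups, since replicate 1 of each group lay alone on its slide. It thus leaves out the lowest E10d1B array.

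Junb, the AP-1 subunit that often opposes JUN in growth control, differed more but varied more. The log2 ratio of the probe used was 1.66, -0.41, 0.59, 0.62 and -0.23 on the E8w1B arrays, against -1.23, -1.03, -1.68, -1.05 and -0.65 on the E8w arrays and -0.42, -0.58, -0.99 and -0.98 on the P8w arrays. E8w1B lay above both groups on every array, narrowly so against P8w. The difference was 1.57 ± 0.30 over E8w (2.97-fold, limma adjusted p = 7.52e-04) and 1.19 ± 0.32 over P8w (2.28-fold, limma adjusted p = 0.0122). A brighter Junb probe was read on only 12 of 24 arrays once marked spots were left out. Its ratio lay between -0.41 and -0.20 on 4 E8w1B arrays, against -0.69 to -0.44 on 3 E8w arrays, a difference of 0.23 ± 0.10 (limma adjusted p over single probes = 0.183). With marked spots kept that brighter probe stands for the gene, and the Junb differences are 0.21 over E8w and 0.17 over P8w, neither called (limma adjusted p = 0.128 and 0.278). The 2 probes of Junb thus disagree in size, and the larger values rest on the dimmer one.

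Jun, the prototype AP-1 subunit, was dim, well above background on 14 of 24 arrays. These were all 5 E8w1B, all 4 E8wMB and all 3 E10d1B arrays, 1 of 5 E8w arrays, 1 of 4 P8w arrays and 0 of 3 P10d arrays. Its log2 ratio was 0.38, 0.33, 0.53, 0.04 and 0.00 in E8w1B, against -0.38, -0.36, -0.27, -0.30 and -0.13 in E8w and -0.03, -0.30, -0.22 and -0.29 in P8w. The E8w1B arrays were the highest, yet the differences of 0.54 ± 0.22 over E8w and 0.47 ± 0.23 over P8w were not called (limma adjusted p = 0.0984 and 0.197). With the slide as a block the same differences were 0.54 and 0.46 and were called (limma adjusted p = 0.00354 and 0.0169). The scanner's own log ratio gave 1.81 and 1.55 (limma adjusted p = 0.00209 and 0.0104).

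At 10 days Jun was at 0.22 ± 0.44 in E10d1B, against -0.50 ± 0.24 in P10d (SD, n = 3 each). P10d was not well above background on any array. Against a floor for such arrays, the mean Cy5 level of Jun was 1.63-fold higher in E10d1B. That floor is, for each dim array, the lowest signal of any probe well above background or the probe's own signal if higher. The fold compares means only and takes no account of the scatter among arrays. The fitted difference of 0.72 ± 0.28 (95% interval 0.14 to 1.3) was not called (limma adjusted p = 0.136). With the slide as a block, which rests on the 2 slides that hold both groups, the difference was 0.86 (limma adjusted p = 0.0132). Without replicate 1 of E10d1B it was 0.97 (limma adjusted p = 0.0499).

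Fos, the partner of the JUN proteins, was well above background on 9 of 24 arrays: 3 of 5 E8w1B, 4 of 4 E8wMB, 1 of 3 E10d1B, 0 of 5 E8w, 1 of 4 P8w and 0 of 3 P10d arrays. Its log2 ratio was 0.33, 0.26, 0.54, 0.02 and 0.01 in E8w1B, against -0.42, -0.31, -0.32, -0.24 and -0.16 in E8w and -0.02, 0.11, -0.20 and -0.24 in P8w. E8w1B did not overlap with E8w and overlapped with P8w. The difference over E8w was 0.52 ± 0.15 (95% interval 0.21 to 0.83, limma adjusted p = 0.0188), and it was 0.44 with adjusted p = 0.0633 without replicate 3 of E8w1B. Over P8w it was 0.32 ± 0.16 (limma adjusted p = 0.202). Against the floor used for Jun, the Cy5 means of E8w1B and E8w were 1.28-fold apart, without regard to scatter. The scanner's own log ratio gave 2.27 over E8w and 1.60 over P8w, both called (limma adjusted p = 0.00157 and 0.0269), so the size of the Fos difference depends on which ratio is used. Fos and Jun each have 10 spots per array, and the median SD among the spots of an array was 0.11 for Fos and 0.12 for Jun, which measures the technical spread within an array only.

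Fosb, the FOS relative whose product also pairs with JUN proteins, was called in 0 of the 9 comparisons. Its log2 ratio ranged from -0.43 to 0.16 in E8w1B, from -0.44 to 0.01 in E8w and from -0.17 to -0.02 in P8w. The difference of E8w1B over P8w was -0.03 (95% interval -0.24 to 0.18).

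Atf3, the stress-induced ATF/CREB family factor, stood just outside the threshold. Its log2 ratio was 0.08, 0.90, 0.33, 0.09 and 0.25 in E8w1B, against -0.62, -0.43, -0.46, -0.55 and 0.04 in E8w and 0.00, -0.54, -0.70 and -0.79 in P8w. Every E8w1B array was above every array of both groups, the closest being replicate 5 of E8w. The differences were 0.73 ± 0.28 over E8w and 0.84 ± 0.30 over P8w (limma adjusted p = 0.0876 and 0.0625). With the slide as a block they were 0.73 and 0.90 and were called (limma adjusted p = 0.00536 and 0.00323), and without replicate 1 of P8w the difference over P8w was 1.01 (limma adjusted p = 0.0395). At 10 days the difference was 0.65 ± 0.37, with no overlap between groups and not called (limma adjusted p = 0.357).

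Ier2, a growth-factor-induced nuclear protein, was at 1.08, -0.40, 0.09, 0.55 and 0.16 in E8w1B, against -0.59, -0.65, -0.91, -0.93 and -0.51 in E8w and -0.55, -0.48, -0.76 and -0.49 in P8w. The groups did not overlap. It rose by 1.01 ± 0.22 over E8w (2.02-fold, limma adjusted p = 0.00188) and by 0.87 ± 0.23 over P8w (1.82-fold, limma adjusted p = 0.0106). In Cy5 alone the difference over P8w was 0.67 and was not called (limma adjusted p = 0.0783). A probe named Ier2 only in the earlier of the array's name lists was dim, well above background on 11 arrays, and differed by 0.00 ± 0.10 between E8w1B and E8w. That probe was lower in E10d1B than in P10d by -0.52 ± 0.13 (limma adjusted p over single probes = 0.0144).

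Ier3, a stress-induced regulator of cell survival, was well above background on 4 of 5 E8w1B and 4 of 4 E8wMB arrays and on 0 of the 15 arrays of E10d1B, E8w, P8w and P10d. Its probe thus passed the filter of 3 or more such arrays only through E8w1B and E8wMB. Its log2 ratio was 0.72, -0.19, 0.08, 0.07 and -0.01 in E8w1B, against -0.42, -0.58, -0.45, -0.46 and -0.14 in E8w. The difference of 0.54 ± 0.17 (95% interval 0.18 to 0.9) was called (limma adjusted p = 0.0341), although 1 array of each group overlapped. Against the floor used for Jun, the Cy5 means were 1.35-fold apart, without regard to scatter. The call is fragile: adjusted p was between 0.0519 and 0.118 without any one of 4 E8w replicates or of 2 E8w1B replicates, and without replicate 1 of E8w1B the difference was 0.39. The scanner's own log ratio gave 2.65 (limma adjusted p = 5.69e-04). Over P8w the difference was 0.42 ± 0.18 (limma adjusted p = 0.134), with -0.05, -0.26, -0.45 and -0.40 in P8w.

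**Figure D2:**
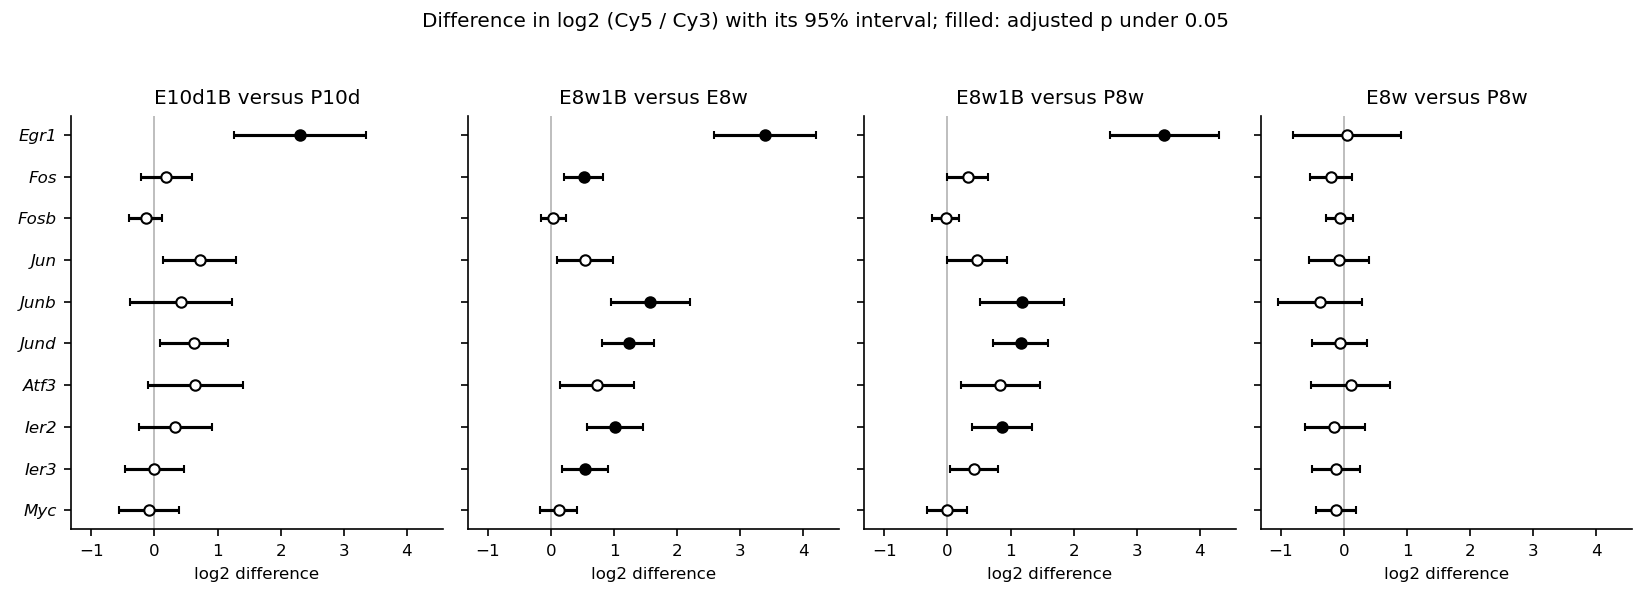
Difference in log2 ratio with its 95% interval for the 10 genes in 4 comparisons within a scan; filled points passed the limma adjusted p threshold of 0.05. Egr1 stands at 2.30, 3.39 and 3.44 in the 3 comparisons that include a binge and at 0.05 for the 8-week diet alone.

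Counted over the set, 6 of 10 genes were higher in E8w1B than in E8w and 0 lower, where 15.6% of all genes tested were called, 7.52% higher and 8.11% lower. Fos and Ier3 among these would not have passed the filter of 3 or more arrays well above background without the arrays of binge groups. With no filter on dim probes, 6 were called as well. Over P8w, 4 of 10 (Egr1, Junb, Jund and Ier2) were higher and 0 lower, against 15.5% of all genes called, 6.99% higher and 8.46% lower. The median difference of the 10 genes was 0.64 over E8w and 0.65 over P8w, while that of all genes was 0.01 and 0.02. In E10d1B over P10d, 1 gene was higher and 0 lower, where 6.98% of all genes were called, and the median was 0.38 against -0.01 for all genes. Of all genes 4.17% were called higher and 2.81% lower there. The comparisons of E8w1B with E8w and with P8w share the E8w1B arrays.

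The 8-week ethanol diet alone gave 0 of 10 calls in limma, with 0.138% of all genes called (0.0576% higher and 0.0806% lower) and 0 of the 10 at an unadjusted p under 0.05. On the probe used for each gene, the differences of E8w over P8w ran from -0.38 (Junb, 95% interval -1.05 to 0.28) to 0.11 (Atf3, -0.52 to 0.73). The intervals of Fos and Fosb lay within -0.53 and 0.14, while that of Egr1, -0.81 to 0.91, leaves room for nearly 1 log2 unit either way. Fos was well above background on 0 of 5 E8w and 1 of 4 P8w arrays, and the offset shrinks differences of dim genes. The Fos difference ran from -0.67 to -0.12 across the alternatives, so its interval is no bound on the change. The Myc probe used gave -0.13 (-0.45 to 0.19), but the other Myc probes gave -1.65 ± 0.37 and -1.49 ± 0.35, neither called and both described with the Myc values. P8w against P10d also gave 0 calls (1.62% of all genes, 1.15% higher and 0.476% lower; 0 of the 10 at an unadjusted p under 0.05). The interaction of ethanol plus binge with feeding length gave 0 calls as well (3.3% of all genes, 0.888% higher and 2.41% lower). In it, 0 of the 10 had an unadjusted p under 0.05. Of its 10 estimates 9 were above 0, with a median of 0.30 against 0.02 for all genes. The share of all genes above 0 was not counted.

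**Figure D3:**
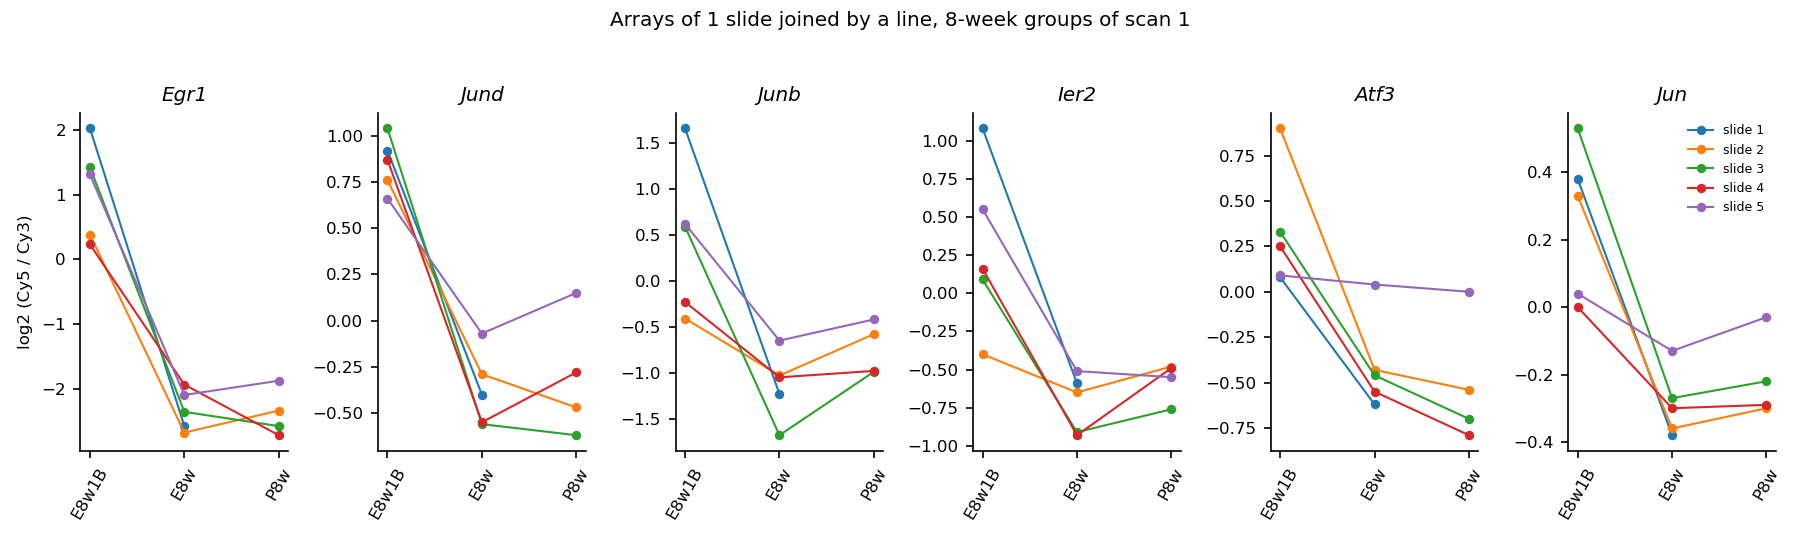
Log2 ratio of 6 genes on the slides of scan 1, with arrays of 1 slide joined by a line; slide 1 holds no P8w array and each panel has its own vertical scale. E8w1B is above E8w on 5 of 5 slides for each of the 6 genes.

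Because P8w, E8w and E8w1B arrays shared slides, the binge differences could also be read within a slide, as the plot of arrays joined by slide shows. Egr1, Fos, Jun, Junb, Jund, Atf3, Ier2 and Ier3 were each higher in E8w1B than in E8w on 5 of 5 slides and higher than P8w on 4 of 4. The share of all genes with the same sign on every slide was not counted, so this has no background beside it. For E8w1B minus E8w the smallest of the 5 slide differences lay on slide 5 for Jund (0.73), Ier3 (0.2), Fos (0.18), Jun (0.17) and Atf3 (0.05). It lay on slide 4 for Egr1 (2.16) and on slide 2 for Junb (0.62) and Ier2 (0.25). With the slide as a block, 8 of 10 genes were called for E8w1B over E8w (15.9% of all genes), 6 for E8w1B over P8w (14.5%) and 3 for E10d1B over P10d (4.04%). The count at 10 days rests on the 2 slides that hold both groups. The same block called 0 for E8w over P8w (0.104%) and 0 for the interaction (1.33%). P8w and P10d shared no slide, so there the slide was entered as a random effect and the difference stayed between slides. That fit called 0 for P8w over P10d (2.15%).

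The Cy5 channel alone, without the reference, was also tested by itself. It called 6 genes higher for E8w1B over E8w (8.4% of all genes), 3 higher for E8w1B over P8w (11.7%), 1 higher for E10d1B over P10d (1.75%) and 0 for E8w over P8w (0.138%), with 0 lower in each. It called 0 for P8w over P10d (9.74%) and 0 for the interaction (1.73%). In Cy3 alone, 0 of the 10 genes were called for E8w1B over E8w (0.0057% of all genes) and for P8w over P10d (5.82%).

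For repeated binges the ratio and the Cy5 channel alone gave different pictures. On the E8wMB arrays the Egr1 ratio was 0.35, -0.98, 0.37 and -0.96, above every E8w and P8w array. The difference was 2.01 ± 0.42 over E8w (limma adjusted p = 0.00134) and 2.06 ± 0.44 over P8w (limma adjusted p = 0.00224), and by the scanner's own log ratio 3.02 and 3.77. Against E8w1B it was -1.38 ± 0.42 (limma adjusted p = 0.0152). The Cy5 level of Egr1 was nevertheless alike in both binge groups, at 11.10, 9.55, 10.73 and 9.34 on the log2 intensity scale in E8wMB, against 10.94, 9.47, 10.58, 10.34 and 9.26 in E8w1B, and the difference in Cy5 alone was 0.06 (limma adjusted p = 0.919). The Cy3 level of the reference was 11.03, 10.90, 10.64 and 10.69 in E8wMB, against 9.41, 9.49, 9.57, 9.25 and 9.38 in E8w1B, higher by 1.39 in Cy3 alone (limma adjusted p = 2e-10).

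This was not limited to Egr1. In Cy3 alone, the channel of the common reference, 7 of the 10 genes were higher in E8wMB than in E8w1B, with 45% of all genes called, and 6 were higher than in E8w and in P8w, with 47.7% and 48.8% of all genes called. Between E8w1B and P8w, which shared a scan, 0 of the 10 genes and 0% of all genes were called in Cy3. Jund was lower in E8wMB than in E8w1B by -0.88 ± 0.23 in the ratio (limma adjusted p = 0.00674; n = 3, since the spot of replicate 1 was marked) but higher by 0.74 in Cy5 alone (limma adjusted p = 0.0286). Atf3 was lower by -1.06 ± 0.33 in the ratio (limma adjusted p = 0.0177; n = 3 for the same reason) and differed by -0.01 in Cy5 alone. Jun differed by -0.28 in the ratio and by 1.21 in Cy5 alone (limma adjusted p = 9.93e-05). Whether the change of the reference channel with scan 3 accounts for the lower ratios was not tested.

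**Figure D4:**
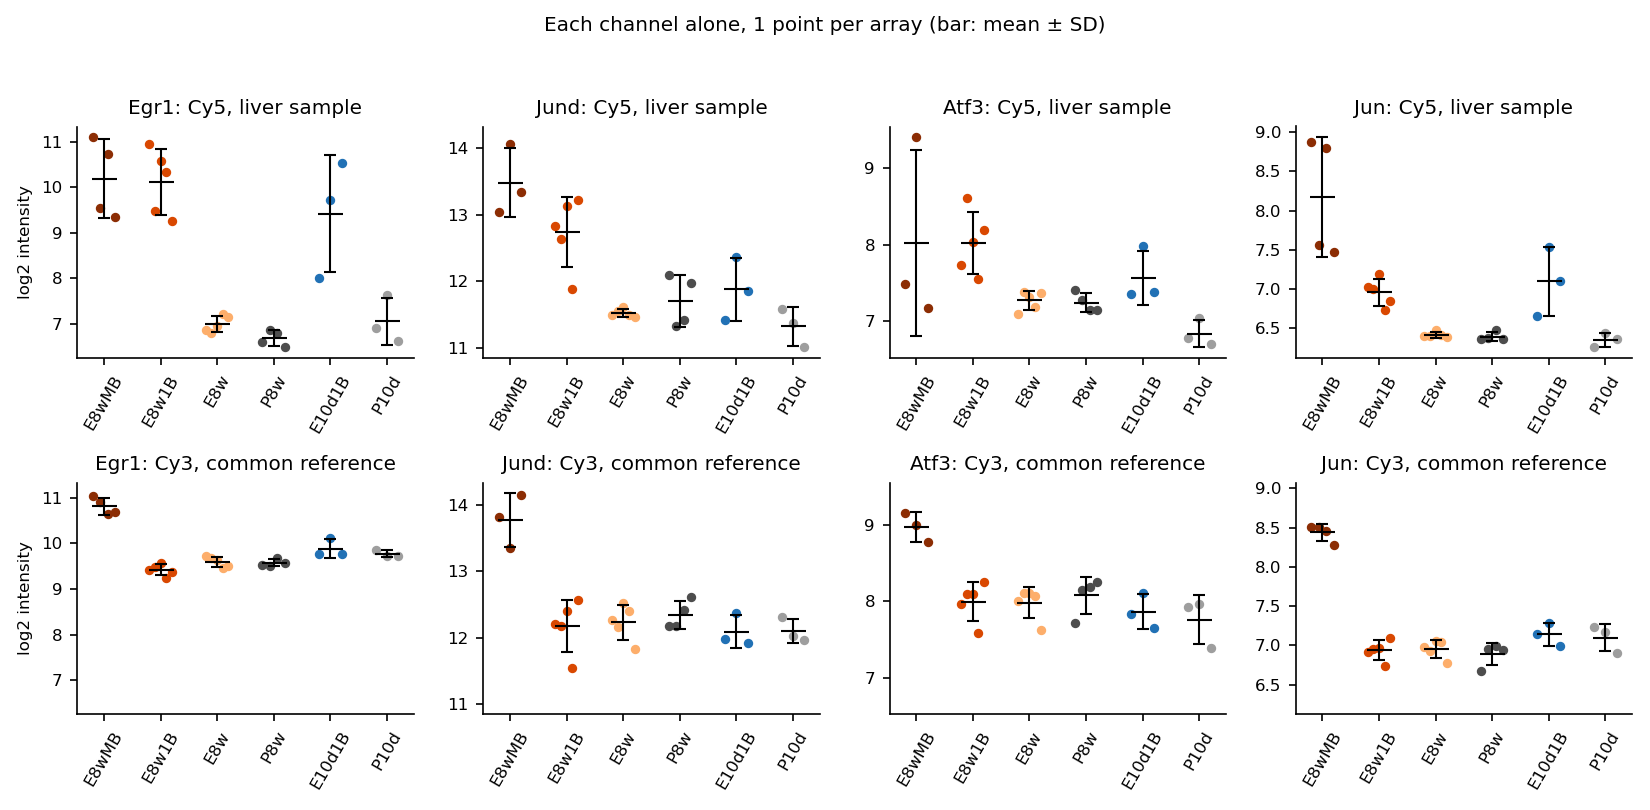
Background-corrected and quantile-normalised log2 intensity of Egr1, Jund, Atf3 and Jun in Cy5 (top) and Cy3 (bottom), 1 point per array with group mean and SD; both channels of a gene share 1 scale. In Cy3 the E8wMB arrays of Egr1 lie between 10.64 and 11.03 and those of E8w1B between 9.25 and 9.57, while in Cy5 both groups span about the same range.

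Counted in the ratio, E8wMB had 1 gene higher and 0 lower against P8w (Egr1; 20.8% of all genes called, 7.56% higher and 13.2% lower), 4 higher and 0 lower against E8w (Egr1, Junb, Ier2 and Ier3; 25.4%, 9.8% higher and 15.6% lower), and 0 higher and 3 lower against E8w1B (Egr1, Jund and Atf3; 29.9%, 11.8% higher and 18.1% lower). In Cy5 alone 7 were higher and 1 (Myc) lower than in P8w, where 46.7% of all genes were called, and 8 were higher than in E8w (47.9%) and 4 higher than in E8w1B (46.3%). E8wMB shared no slide with another group, so there the slide was entered as a random effect and the differences stayed between slides. With that random effect the counts were 1 higher against P8w (19.9% of all genes), 3 higher against E8w (23.5%) and 3 lower against E8w1B (28%). The calls of Junb (0.96 ± 0.32, limma adjusted p = 0.0312) and Ier2 (0.64 ± 0.23, limma adjusted p = 0.0426) against E8w were lost without replicate 1 or replicate 3 of E8wMB, at 0.76 and 0.80 for Junb and 0.57 and 0.53 for Ier2. They were lost as well without replicate 1 or 3 of E8w for Junb (0.93 and 0.82), and without any one of replicates 1 to 4 of E8w or replicate 4 of E8wMB for Ier2 (0.59 to 0.68). Junb was also not called with marked spots kept (0.11), with the mean of its probes (0.70) or with median centring (0.74), nor Ier2 with median centring (0.43) or with slide (0.64) or replicate number (0.65) as a block. The call of Ier3 (0.59 ± 0.18, limma adjusted p = 0.0201) was lost without replicate 1 or 3 of E8wMB, at 0.42 and 0.46. The calls of Egr1, Jund and Atf3 against E8w1B were lost without replicate 2, at -1.15, -0.66 and -0.67, or without replicate 4, at -1.16, -0.64 and -0.75. Without replicate 3 the Jund difference was -1.34 and that of Atf3 was -1.77.

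The 4 E8wMB arrays were far apart for most of the genes. Jun was at 0.65, -0.79, 0.65 and -0.60, Fos at 0.46, -0.52, 0.54 and -0.27, Ier3 at 0.70, -0.46, 0.60 and -0.10, and Junb at 0.41, -0.71, 0.29 and -0.68. Replicates 1 and 3 were the high ones and replicates 2 and 4 the low ones in each of these genes, on each of the 2 slides. The SD of the group was 0.78 for Jun, 0.52 for Fos and 0.56 for Ier3, against 0.23, 0.22 and 0.34 in E8w1B. Atf3 was at -1.52, 0.69 and -1.37 on replicates 2, 3 and 4, and without replicate 3 it was called lower in E8wMB than in P8w (-0.93, limma adjusted p = 0.0089) and than in E8w (-1.04, limma adjusted p = 0.00271), where with all arrays it was not called in either. Without replicate 2, Ier3 was called over P8w (0.69, limma adjusted p = 0.00975) and Fos over E8w (0.53, limma adjusted p = 0.0123).

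Myc, the growth-promoting E-box factor, was measured by 3 probes that did not behave alike. The brightest, used for the gene, was called in 0 of 9 comparisons, and its ratio was -0.16, -0.13, -0.26, -0.40 and -0.27 in E8w, against -0.50, 0.42, 0.06 and -0.41 in P8w. A probe with 10 spots per array was at 0.23, -1.50, -1.22, -1.31 and -0.60 in E8w, against -0.03, 1.59, 1.16 and 0.36 in P8w, and the remaining one, of 1 spot, was at 0.15, -1.15, -1.16, -1.27 and -0.65 in E8w, against 0.02, 1.43, 1.11 and 0.12 in P8w. Both dimmer probes were well above background on all 24 arrays, and their ratios went together across the 24 arrays (Pearson r = 0.98), against 0.40 and 0.47 with the brightest probe over 22 arrays. These correlations are a description over arrays that share the reference.

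**Figure D5:**
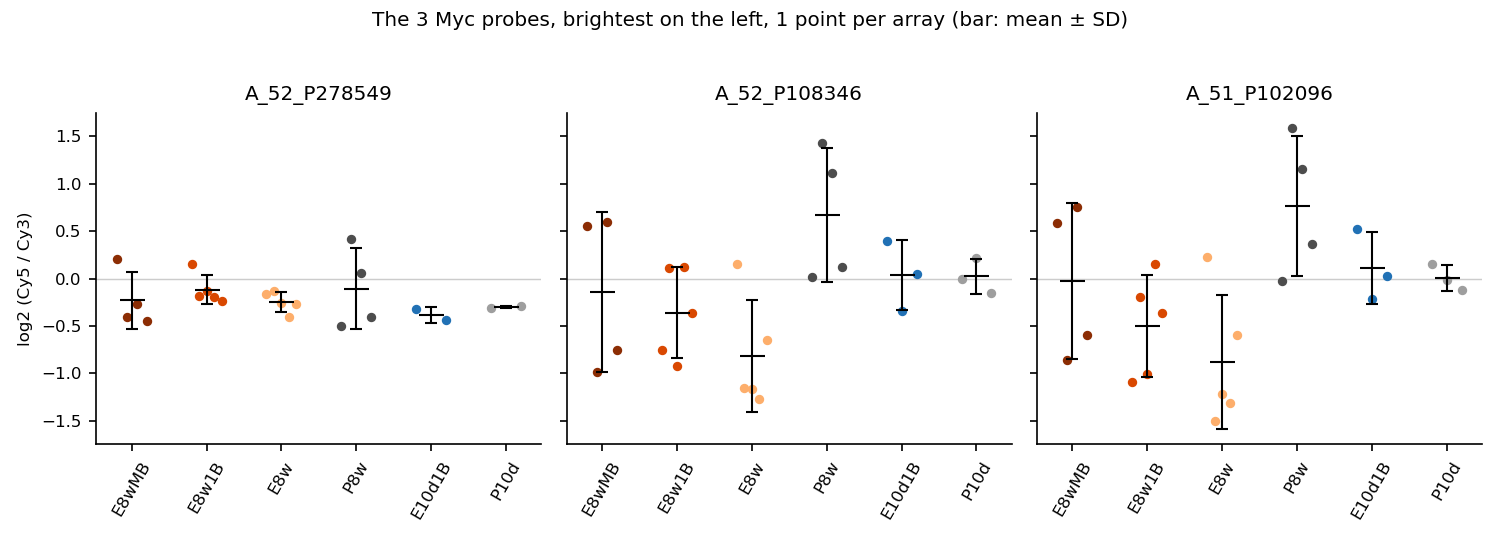
Log2 ratio of the 3 Myc probes, brightest on the left, 1 point per array with the mean and SD of each group. The 2 dimmer probes follow each other, with P8w means of 0.67 and 0.77 above E8w means of -0.81 and -0.88, while the brightest stays between -0.50 and 0.42.

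On the dimmer Myc probes the difference of E8w over P8w was -1.65 ± 0.37 and -1.49 ± 0.35, with the same sign on 4 of 4 slides (-3.09 to -0.57 and -2.57 to -0.67). Neither was called among single probes (limma adjusted p = 0.0895 and 0.109), where 0.118% of all probes were; in the other comparisons the share of all probes called was 4.89% (E10d1B over P10d), 11.5% (E8w1B over E8w), 19.7%, 25.6% and 28.9% (E8wMB over P8w, E8w and E8w1B), 1.2% (P8w over P10d) and 2.11% (interaction). For E8w1B over P8w the differences were -1.27 ± 0.37, which was called (limma adjusted p = 0.0251; 11.4% of all probes), and -1.03 ± 0.35, which was not (limma adjusted p = 0.0569). On slide 5 that difference was 0.18 and 0.10, the opposite sign to the other slides. The P8w arrays themselves were far apart on these probes (SD 0.74 and 0.70). Which transcript each probe reads was not analysed here, so no direction is given for the gene.

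Of 30 other immediate early genes, 28 were tested. In E8w1B over E8w, 10 rose and 2 fell, that is 42.9% against 15.6% of all genes, with a median of 0.37. The 3 with the lowest adjusted p were Klf4, a zinc finger factor (1.21 ± 0.17, limma adjusted p = 2.72e-05), Gadd45b, a growth arrest and stress gene (1.20 ± 0.18, limma adjusted p = 6.09e-05), and Ier5, an immediate early response gene (0.74 ± 0.12, limma adjusted p = 1.56e-04). Over P8w, 9 rose and 1 fell (35.7%, against 15.5% of all genes, median 0.20). Those of lowest adjusted p were Gadd45b (1.39 ± 0.19), Ier5 (0.65 ± 0.13) and Dusp6, a phosphatase of the ERK kinases (1.05 ± 0.19). In E10d1B over P10d, 3 rose and 1 fell (14.3%, against 6.98% of all genes, median 0.10): Ier5 (1.02 ± 0.16), Rhob, a small GTPase (0.81 ± 0.20), and Klf10 were higher, and Zfp36, which speeds the decay of inflammatory mRNAs, was lower (-0.80 ± 0.19, limma adjusted p = 0.00996). In E8w over P8w, 0 of 28 passed. The interaction was called for 2 of 28 (7.14%, against 3.3% of all genes), Gadd45b (1.56 ± 0.30, limma adjusted p = 0.00321) and Zfp36 (0.89 ± 0.24, limma adjusted p = 0.0423).

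Among 20 dimer partners and inhibitors of the 10 genes, 4 rose and 1 fell in E8w1B over E8w (25%, against 15.6% of all genes) and 1 rose and 2 fell over P8w (15%, against 15.5%). Mafg, a small MAF protein, fell in both (-0.62 ± 0.11 over E8w and -0.58 ± 0.12 over P8w) and also in E10d1B over P10d (-0.66 ± 0.14, limma adjusted p = 0.00361). Atf4, the integrated stress response factor, was higher over P8w (0.73 ± 0.15, limma adjusted p = 0.00257), and Max, the partner of MYC, was higher in E10d1B over P10d (0.63 ± 0.13, limma adjusted p = 0.00436). Of 19 tested genes of the serum response factor and MAP kinase pathway, 3 rose and 2 fell over E8w (26.3%, against 15.6% of all genes) and 2 rose and 1 fell over P8w (15.8%, against 15.5%). The kinase genes Map2k4 (0.52 ± 0.12 over E8w and 0.49 ± 0.13 over P8w) and Map2k3 (-0.43 ± 0.10 and -0.57 ± 0.11) went opposite ways in both.

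Among MYC target genes, 4 of 13 tested rose in E8w1B over P8w (30.8%, against 15.5% of all genes), 1 of 14 over E8w (7.14%, against 15.6%) and 2 of 15 in E10d1B over P10d (13.3%, against 6.98%), with 0 lower in each. Odc1, the rate-limiting enzyme of polyamine synthesis, rose by 0.78 ± 0.12 over E8w and by 0.69 ± 0.13 over P8w (limma adjusted p = 8.29e-05 and 6.08e-04). In E10d1B, Srm, the spermidine synthase, was higher by 0.73 ± 0.19 (limma adjusted p = 0.0256). None of these shares was compared with the background by a test.

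The gene whose ratio ran closest to Egr1 over the arrays was Atp6v0e (Pearson r = 0.956 over 22 arrays), followed by Tgm2 (0.954 over 24) and Plin3 (0.953 over 20), among 16810 genes. For Jund these were Thbd (0.959 over 23 arrays), Tmem87b (0.954 over 22) and Plin3 (0.946 over 19), and for Junb they included Tnpo1 (0.922 over 22) and Lrrc8a (0.917 over 24). All arrays share the reference RNA, and the values only describe likeness of pattern.

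Markers of liver cell types are given beside these results. Of all genes, 15.5% were called in E8w1B over P8w, 15.6% in E8w1B over E8w and 6.98% in E10d1B over P10d. Of 5 tested neutrophil markers, 2 were higher and 0 lower in E8w1B over P8w, and 2 higher and 1 lower over E8w. Of the macrophage markers, 0 were higher and 2 of 5 lower over P8w, and 0 higher and 1 of 6 lower over E8w. The summed Cy5 level of the neutrophil list ranged from 2930 to 6780 in E8w1B, against 1810 to 6140 in E8w and 2480 to 4110 in P8w, that of the macrophage list from 7370 to 14300, against 9070 to 12500 and 4940 to 11900, and that of the hepatocyte list from 396000 to 702000, against 472000 to 551000 and 480000 to 579000. Of 4 B and T cell markers and 4 cholangiocyte markers, 0 were called in either comparison, and endothelial markers were called in both directions, with 1 higher and 2 lower of 5 over P8w and 2 higher and 2 lower over E8w. Of 6 stellate cell markers, 0 were higher and 1 lower over P8w, and 1 higher and 2 lower over E8w. Of 5 tested hepatocyte markers, 1 was higher and 0 lower in E8w1B over P8w, and 1 higher and 0 lower over E8w. In E10d1B over P10d, 2 of 5 hepatocyte, 2 of 5 endothelial and 1 of 6 stellate cell markers were higher. Their part in the differences described was not tested.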

How the data were processed

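Liver RNA (Cy5) and a reference RNA (Cy3) were read on 24 arrays with Agilent Feature Extraction 11.5.1.1, per the submitters' processing notes. The deposited intensity values are median spot and background intensities in both channels, and the deposited log10 ratios are those of that software, as the headers of the files show. A series-wide set of log2 ratios was also deposited by the authors. It followed the scanner's log ratio (slopes of 1 to 1.01), and its making is not given in the sources used here.

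Values were computed from the median intensities. Marked spots (non-uniform, or outliers of their population) were left out, 1.34% to 7.64% per array. The normexp method with an offset of 50 removed background, and loess normalized each array (R 4.3.3; limma 3.58.1; statmod 1.5.0; and, for reading files, the data.table package, 1.17.8). The offset shrinks differences of dim genes. A probe was kept if 3 or more arrays read it well above background in Cy5 (36618 of 41174), and each of 17855 genes was represented by its brightest kept probe with 2 or more values in each group. Fos, Jun and Ier3 would not have been kept without the arrays of binge groups. The array files hold an earlier and a later list of probe names, which differ for 8605 probes, and the later one was used. Channels alone were quantile-normalized between arrays. The number of arrays limits the precision, and 0 spots were saturated.

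Groups came from the labels. One limma fit of 6 group means over 24 arrays gave 9 comparisons. All 10 genes were named, with up to 3 called genes of the lowest adjusted p from each of 4 pathway lists and the 3 nearest genes of the 3 members with the widest range of group means. One of these nearest genes is not reported here. Klf10 was added after its value was seen. The members, lists and tests were chosen with earlier results of these data known. Alternatives were other background and normalization choices, Cy5 alone, the scanner's and the deposited ratios, other rules on dim probes, marked spots and probes, array weights, blocks for slide and replicate number, and each replicate left out. The fit was tested on simulated data.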

Additional observations from a re-analysis of the deposited data

How the results depend on the processing

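Of 19 called differences of single genes, 7 passed under every alternative: Egr1 and Jund for E8w1B over E8w and over P8w, Egr1 for E8wMB over E8w and over P8w, and Ier2 for E8w1B over E8w. Of 71 differences not called, 25 passed under at least 1 alternative. With Cy5 alone the E8wMB minus E8w1B difference turned sign for Egr1 (to 0.06), Jund (0.74), Jun (1.21), Fos (0.21) and Ier2 (0.11). It kept its sign for Junb (-0.36), Atf3 (-0.01), Myc (-0.21), Fosb (0.39) and Ier3 (0.55). Cy5 alone called 8 genes for E8wMB over P8w and 8 over E8w. Below, brackets give the numbers of all genes called higher and lower under the same setting. The scanner's log ratio called 2 genes for E10d1B over P10d (507 and 314) and 8 for E8w1B over P8w (1169 and 1594). It called 2 for E8wMB over P8w (1967 and 1871) and 1 for E8wMB over E8w1B (3016 and 2431). For these the deposited table called 2 (515 and 331), 7 (1232 and 1713), 2 (2092 and 1959) and 0 (3166 and 2440). The slide as a block, which rests on 2 slides at 10 days, called 3 for E10d1B over P10d (436 and 266). Median centring called 5 for E8wMB over E8w1B (1799 and 4342). The causes were not tested. Without 1 replicate at a time the number called ranged from 0 to 2 for E10d1B over P10d, from 4 to 5 for E8w1B over P8w, from 4 to 6 for E8w1B over E8w, from 1 to 2 for E8wMB over P8w, from 1 to 5 for E8wMB over E8w and from 0 to 3 for E8wMB over E8w1B. It stayed at 0 for E8w over P8w, for P8w over P10d and for the interaction. Calls over all genes were not counted without 1 replicate. Same-numbered samples correlated weakly (-0.25 to 0.36) and were not treated as pairs. Many of them lay on the same slide, however: 3 of 4 pairs of E8w and P8w and 3 of 5 of E8w1B and E8w. Replicate number and slide thus overlap in part. With the replicate number as a block, 1 gene was called for E10d1B over P10d (712 and 531), 4 for E8w1B over P8w (1151 and 1490) and 6 for E8w1B over E8w (1301 and 1454). That block called 1 for E8wMB over P8w (1347 and 2410), 3 for E8wMB over E8w (1873 and 2932) and 3 for E8wMB over E8w1B (2179 and 3277). It called 0 for E8w over P8w (5 and 7), P8w over P10d (631 and 151) and the interaction (137 and 405). Signal near background limits Fos, Jun and Ier3. The scanner's log ratio gave larger differences than the values used for these genes in E8w1B over E8w, and for Egr1 too, at 4.32 against 3.39.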
